A study of Mus musculus with 8 samples.

Results

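The transcript levels of 42 genes of glycolysis, pyruvate handling and the tricarboxylic acid (TCA) cycle were examined in mouse intestinal organoids. The genes were listed by their place in the pathway, and they comprised 15 genes of glycolysis with glucose uptake, 12 genes of lactate and pyruvate handling and 15 genes of the TCA cycle. They were 42 of 13897 genes with a value in the data, and all 42 were among the 10904 genes that passed a filter on low values. The organoids were cultures grown in Matrigel from crypts of the intestine, 4 samples from wild type (WT) mice and 4 from MG53-TG littermates, which carry a transgene for MG53, a membrane repair protein of muscle encoded by Trim72. No treatment is given for either group. The study's text ascribes the sequenced organoids to a cross of MG53-TG with Lgr5 knock-in mice in 1 place and to MG53-TG and WT mice in another. The labels name no Lgr5 allele, so whether the samples carried one is not known here. The age and sex of the mice, the promoter of the transgene and whether the 4 samples of a group came from separate mice are not given in the sources used here, so p-values measure only the spread between these samples. The values are FPKM, that is, sequenced fragments corrected for the length of the transcript and for the number of fragments of the library.

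Glycolysis splits glucose into pyruvate in the cytosol. Pyruvate is then reduced to lactate, or it enters the mitochondrion through a carrier and is turned into acetyl-CoA by the pyruvate dehydrogenase complex, whose kinases switch the complex off. The TCA cycle oxidizes acetyl-CoA. Several steps are carried by isozymes from different genes, and proliferating crypt cells and absorptive enterocytes are known to use different ones. Pyruvate kinase, the last step of glycolysis, is made from Pkm, whose transcripts carry 1 of 2 alternative exons, or from Pklr, which is known from liver and erythroid cells and has a separate promoter for each.

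The 2 alternative exons of Pkm are shown because transcripts with and without the M2-type exon could be read apart in these data. Both have 167 bases, lie on the plus strand of chromosome 9 (GRCm38) in the coding sequence and are printed from the GENCODE transcripts, with capitals at the 64 positions where they differ (61.7% identity). The M1-type exon lies at chr9:59675029-59675195 and the M2-type exon at chr9:59675568-59675734.
M1-type exon of Pkm: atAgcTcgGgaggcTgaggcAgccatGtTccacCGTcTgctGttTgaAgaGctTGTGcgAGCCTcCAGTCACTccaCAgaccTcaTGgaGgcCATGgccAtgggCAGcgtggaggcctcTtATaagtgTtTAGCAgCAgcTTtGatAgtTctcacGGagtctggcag
M2-type exon of Pkm: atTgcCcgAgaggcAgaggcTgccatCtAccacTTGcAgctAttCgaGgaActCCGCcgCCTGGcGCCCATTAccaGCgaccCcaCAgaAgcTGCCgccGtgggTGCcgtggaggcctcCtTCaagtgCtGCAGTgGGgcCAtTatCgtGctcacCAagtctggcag

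Aldoa encodes aldolase A. A cassette exon of 153 bases at chr7:126797974-126798126, on the minus strand, is shown because its inclusion differed between the groups. In the annotated transcript with this exon, translation starts within it, 162 coding bases (54 codons) before the start codon of the transcript without it. The 141 coding bases of the exon (chr7:126797974-126798114) are printed 5′ to 3′, with the start codon in capitals.
Aldoa exon, coding part: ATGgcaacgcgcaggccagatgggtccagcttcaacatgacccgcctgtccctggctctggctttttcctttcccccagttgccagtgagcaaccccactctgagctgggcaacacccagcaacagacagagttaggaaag

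The promoters of Hk2 and Pklr are shown because these genes had the lowest and the highest fold change among the 42 genes. The sequences are those of RefSeq (GRCm38.p6), which had promoters for 41 of the 42 genes, 62 in all, and were read for the 250 bases before each start. In the Hk2 promoter (chr6:82774455-82774704, minus strand), capitals mark ACGTG read on either strand, the core that HIF binds.
Hk2 promoter: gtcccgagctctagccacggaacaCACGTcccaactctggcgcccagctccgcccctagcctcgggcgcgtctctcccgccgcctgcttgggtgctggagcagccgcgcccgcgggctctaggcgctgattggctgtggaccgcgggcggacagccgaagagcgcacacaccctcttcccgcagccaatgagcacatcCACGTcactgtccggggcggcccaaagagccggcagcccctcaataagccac
The upstream Pklr promoter (chr3:89135892-89136141, plus strand) did not hold ACGTG on either strand.
Pklr upstream promoter: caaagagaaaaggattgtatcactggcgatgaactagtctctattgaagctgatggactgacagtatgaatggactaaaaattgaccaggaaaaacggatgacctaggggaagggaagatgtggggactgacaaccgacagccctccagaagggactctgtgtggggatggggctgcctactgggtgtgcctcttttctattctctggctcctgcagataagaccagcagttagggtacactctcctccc
In the downstream Pklr promoter, capitals mark a match to the carbohydrate response element, a pair of E-boxes that the glucose-sensing factor ChREBP binds. It is printed up to the first exon as the data have it (chr3:89136373-89136571, plus strand).
Pklr downstream promoter: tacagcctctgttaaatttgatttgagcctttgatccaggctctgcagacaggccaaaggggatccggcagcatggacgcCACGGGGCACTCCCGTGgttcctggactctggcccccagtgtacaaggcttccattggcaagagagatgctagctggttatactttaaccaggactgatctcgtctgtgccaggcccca
ACGTG on either strand was held by 16.6% of 32851 promoter windows of 250 bases and by 22 of the 62 windows of the 42 genes. Some genes have several windows, and these 22 belonged to 15 of the 41 genes with a promoter. Among those 15 were genes that rose (such as Pfkm and Ogdh), fell (Hk2 and Pgk1) or were not called (Ldha and Pgam1). The palindrome CACGTG, which contains ACGTG, was held by 6.02% of all windows. The carbohydrate response element was held by 32 of the 32851 windows (0.0974%), of which 1 was the downstream promoter of Pklr. A match is a description of the letters, not a binding site.

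Trim72 had no entry in the WT samples, whereas MG53-TG samples 1 to 4 had 16.4, 27.4, 31.9 and 36.5 FPKM. The sum of FPKM over transcription starts was 269837 to 273797 in WT samples and 269094 to 284330 in the MG53-TG samples, and the read depth is unknown. The cell type markers moved with the genotype. All 12 enterocyte markers rose, and their summed FPKM was 716 to 838 in WT samples and 8521 to 11443 in the MG53-TG samples. Of 8 stem cell markers 5 fell (sums of 523 to 706 and 65.4 to 327), and of 10 proliferation markers 7 fell (493 to 527 and 131 to 381). Of 7 goblet markers 5 fell (779 to 891 and 213 to 558), of 7 Paneth markers 6 fell and 1 rose (1239 to 1660 and 371 to 559), and of 8 enteroendocrine markers 4 rose (256 to 310 and 363 to 520), with no entry for Neurod1. The sums of 8 mesenchyme markers stayed at or under 5.58 FPKM and those of 6 immune markers at or under 9.31 FPKM in the 8 samples, and Pdgfra, Pdgfrb, Acta2 and Itgam were among those with no entry. Of 3 mesenchyme markers tested 2 were called higher, Col1a2 and Col3a1. They had no entry in the WT samples, where they were taken as 0, or in MG53-TG sample 1, which their fit left out. Their means over the other MG53-TG samples were 1.24 and 1.26 FPKM, so both passed the filter through MG53-TG samples alone. The 1 immune marker tested, Cd68, fell from a mean of 6.14 to 0.935 FPKM. The MG53-TG samples were not alike in these markers. The stem cell sum was 312 and 327 FPKM in MG53-TG samples 1 and 2 and 105 and 65.4 FPKM in samples 3 and 4, the proliferation sum 374 and 381 against 180 and 131 FPKM, and the enterocyte sum 9027 and 8521 against 11146 and 11443 FPKM. The part of these marker shifts in the results below was not tested. In bulk RNA, a change in the number of cells of a type and a change in RNA per cell cannot be told apart.

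Of the 42 genes, 12 rose and 12 fell in the MG53-TG organoids (limma with Benjamini-Hochberg adjustment over all genes tested, adjusted p of at most 0.05). Of all genes tested, 44.2% passed this threshold, 15.5% as higher and 28.7% as lower. The 42 genes thus held 57.1% called, with 28.6% in each direction. The groups did not overlap for 24 of the 42 genes, against 44.5% of all genes tested. The median log2 fold change, on the log2(FPKM + 1) scale that understates the change of low genes, was -0.02 over the 42 genes and -0.17 over all genes tested. When the samples were scaled by the median of ratios, the median of all genes moved to -0.01 and the calls over all genes went from 35.1% to 50.3% higher. Under that scaling 13 of the 42 genes were called higher and 4 lower, and the 4 were Hk1, Hk2, Ldhb and Slc16a1. Of these, Ldhb had a mean of 1.08 FPKM in WT samples and no entry in the MG53-TG samples, where it was taken as 0. It passed the filter through its WT values alone, so its call is no sign of a decrease that holds under scaling. Without MG53-TG samples 1 and 2, 12 of the 42 genes were called higher and 12 lower, and without samples 3 and 4, 9 were called in each direction. None of the 24 called genes changed sign in either fit. The adjusted p under median-of-ratios scaling stands beside each decrease that it ends.

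**Figure D1:**
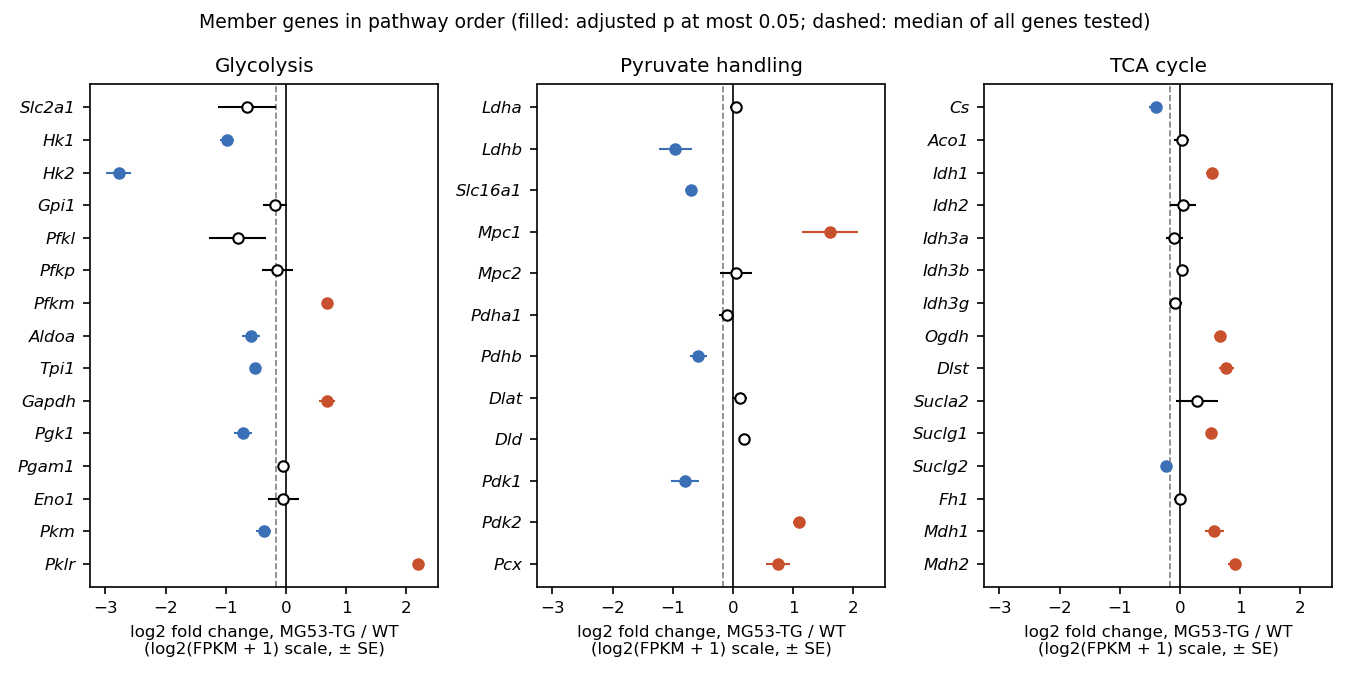
Log2 fold changes of the 42 genes between MG53-TG and WT organoids with their standard errors (n = 4 per group), in pathway order, with filled points for an adjusted p of at most 0.05 and a dashed line at the median of all genes tested (-0.17). Glycolysis holds both the lowest point (Hk2, -2.78) and the highest (Pklr, 2.19), whereas 6 of the 8 filled points of the TCA cycle lie above 0.

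Glucose enters through transporters such as GLUT1, the product of Slc2a1, and is trapped by hexokinases. Slc2a1 was at 5.99, 12.8, 6.18 and 8.91 FPKM in WT samples 1 to 4, and MG53-TG samples 1 to 4 had 3.40, 15.9, 2.38 and 3.50 FPKM. The groups overlapped because of MG53-TG sample 2, and the difference did not pass the threshold (log2 fold change -0.65, SE 0.48, limma adjusted p = 0.299). In sample 2 a cassette exon of Slc2a1 (chr4:119116007-119116120) was included in 86.0% of transcripts, against 2.18% to 5.80% in the other MG53-TG and 7.02% to 14.8% in the WT samples. Without that sample the log2 fold change became -1.16 (limma adjusted p = 0.0078). Hk2 (chr6:82725025-82774454), the hexokinase of proliferating and insulin-responsive tissues, was at 18.0, 19.3, 20.5 and 20.5 FPKM in the WT and at 2.43, 3.34, 1.49 and 1.17 FPKM in the MG53-TG samples. Each MG53-TG sample was far below each WT sample, and the mean fell 9.31-fold (log2 fold change -2.78, SE 0.21, limma adjusted p = 2.41e-05). Hk1 (chr10:62268855-62379908), the widely expressed hexokinase, was at 10.1, 10.1, 11.6 and 11.9 FPKM in the WT and at 4.56, 5.34, 5.75 and 4.54 FPKM in the MG53-TG samples. It fell 2.16-fold with no overlap (log2 fold change -0.98, SE 0.11, limma adjusted p = 0.000265).

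The third hexokinase with a sizeable level was Hkdc1, which was not among the 42 genes. Its mean of 25.5 ± 1.70 FPKM in WT rose to 42.3 ± 8.75 FPKM in MG53-TG samples (SD, n = 4 each; log2 fold change 0.69, limma adjusted p = 0.00575). The hexokinase transcripts together summed to 56.0 ± 2.83 FPKM in WT samples and 49.7 ± 8.35 FPKM in the MG53-TG samples. Of this sum, Hkdc1 held 45.5% ± 2.27 in WT samples and 84.7% ± 3.89 in the MG53-TG samples, whereas Hk2 held 35.0% ± 1.19 and 4.54% ± 2.69 (SD, n = 4 each). The sums of the groups overlapped, and the shares of these 3 genes did not.

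Gpi1 encodes the isomerase of the second step, and its values of 310 to 582 FPKM in WT samples and 362 to 510 FPKM in the MG53-TG samples overlapped (limma adjusted p = 0.494). Phosphofructokinase commits sugar to glycolysis and has 3 genes. Pfkm (chr15:98092589-98132451), the muscle form, was at 11.3, 11.5, 11.6 and 12.7 FPKM in the WT and at 19.3, 19.1, 19.0 and 20.8 FPKM in the MG53-TG samples. Both groups were tight and apart, and Pfkm rose 1.66-fold (log2 fold change 0.69, SE 0.09, limma adjusted p = 0.000423). Pfkl, the liver form, was at 74.5, 64.1, 59.6 and 82.0 FPKM in the WT and at 51.4, 59.3, 65.7 and 11.6 FPKM in the MG53-TG samples, of which sample 4 stood apart (limma adjusted p = 0.201). Pfkp, the platelet form, was at 39.3, 84.0, 84.6 and 92.5 FPKM in the WT and at 51.9, 61.9, 72.8 and 74.3 FPKM in the MG53-TG samples (limma adjusted p = 0.683). Without WT sample 1, which was the lowest, its log2 fold change became -0.42 (limma adjusted p = 0.0481). The summed FPKM of the 3 genes was 157 ± 25.4 in WT samples and 132 ± 22.0 in the MG53-TG samples (SD, n = 4 each), and Pfkm held 7.62% ± 1.00 and 15.2% ± 3.24 of it.

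Aldolase splits the sugar into trioses. Aldoa (chr7:126795234-126800751) was at 944, 966, 1161 and 1027 FPKM in the WT and at 603, 544, 818 and 802 FPKM in the MG53-TG samples. It fell 1.48-fold without overlap (log2 fold change -0.58, SE 0.14, limma adjusted p = 0.0113, and 0.141 under median-of-ratios scaling). With end events only, where Aldoa was listed at 0.0568 to 6.52 FPKM, the sign turned (0.27, limma adjusted p of 0.724).

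The next enzymes handle 3-carbon sugars. Tpi1 (triose-phosphate isomerase) was at 683, 671, 742 and 700 FPKM in the WT and at 498, 440, 535 and 487 FPKM in the MG53-TG samples. It fell 1.43-fold with no overlap (log2 fold change -0.51, SE 0.08, limma adjusted p = 0.00111, and 0.0567 under median-of-ratios scaling). Pgk1 (phosphoglycerate kinase, which makes ATP) was at 976, 987, 1062 and 992 FPKM in the WT and at 546, 475, 700 and 777 FPKM in the MG53-TG samples, a 1.61-fold fall (log2 fold change -0.71, SE 0.15, limma adjusted p = 0.00498, and 0.0665 under median-of-ratios scaling). These values are sums over transcription ends, and with start events only, where WT sample 1 was listed at 154 FPKM for the main start, the log2 fold change came to -0.04 (limma adjusted p = 0.958). Gapdh (glyceraldehyde-3-phosphate dehydrogenase) was at 149, 181, 173 and 161 FPKM in the WT and at 291, 207, 281 and 294 FPKM in the MG53-TG samples. It rose 1.62-fold (log2 fold change 0.68, SE 0.13, limma adjusted p = 0.00303), again from end events, and start events only gave 0.34 (limma adjusted p = 0.641).

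The values of Gapdh, Pgk1, Eno1, Ldha, Tpi1, Pgam1 and Aldoa are uncertain to the extent that reads were shared with their many processed copies in the genome. Pgam1 (phosphoglycerate mutase) was at 128 to 133 FPKM in WT samples and 114 to 136 FPKM in the MG53-TG samples (limma adjusted p = 0.657). With quantile normalization alone its log2 fold change of -0.21 passed the threshold (limma adjusted p = 0.0451). Eno1 (enolase) was at 1167, 1179, 1126 and 623 FPKM in the WT and at 724, 1175, 1284 and 779 FPKM in the MG53-TG samples. Each group held high and low samples, and the groups did not differ beyond that spread (log2 fold change -0.05, SE 0.26, limma adjusted p = 0.902).

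Pklr (chr3:89136142-89146784) had the highest fold change of the 42 genes. It was at 114, 104, 98.1 and 101 FPKM in the WT and at 495, 473, 477 and 473 FPKM in the MG53-TG samples. The samples of each group lay close together, and the mean rose 4.60-fold (log2 fold change 2.19, SE 0.07, limma adjusted p = 4.24e-07). Pkm (chr9:59656368-59679375) was at 782, 690, 875 and 934 FPKM in the WT and at 691, 675, 626 and 537 FPKM in the MG53-TG samples. The groups overlapped by WT sample 2 and MG53-TG sample 1 (log2 fold change -0.37, SE 0.12, limma adjusted p = 0.0314). The call was lost under median-of-ratios scaling (limma adjusted p of 0.238), with quantile normalization (0.125), with end events only (0.272) and when any of WT samples 1, 3 and 4 or MG53-TG samples 3 and 4 was left out (limma adjusted p = 0.0545 to 0.0852). Pklr held 11.4% ± 1.74 of the pyruvate kinase sum in WT samples and 43.3% ± 2.55 in the MG53-TG samples (SD, n = 4 each). The sum was 925 ± 104 FPKM in WT samples and 1112 ± 75.6 FPKM in the MG53-TG samples.

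**Figure D2:**
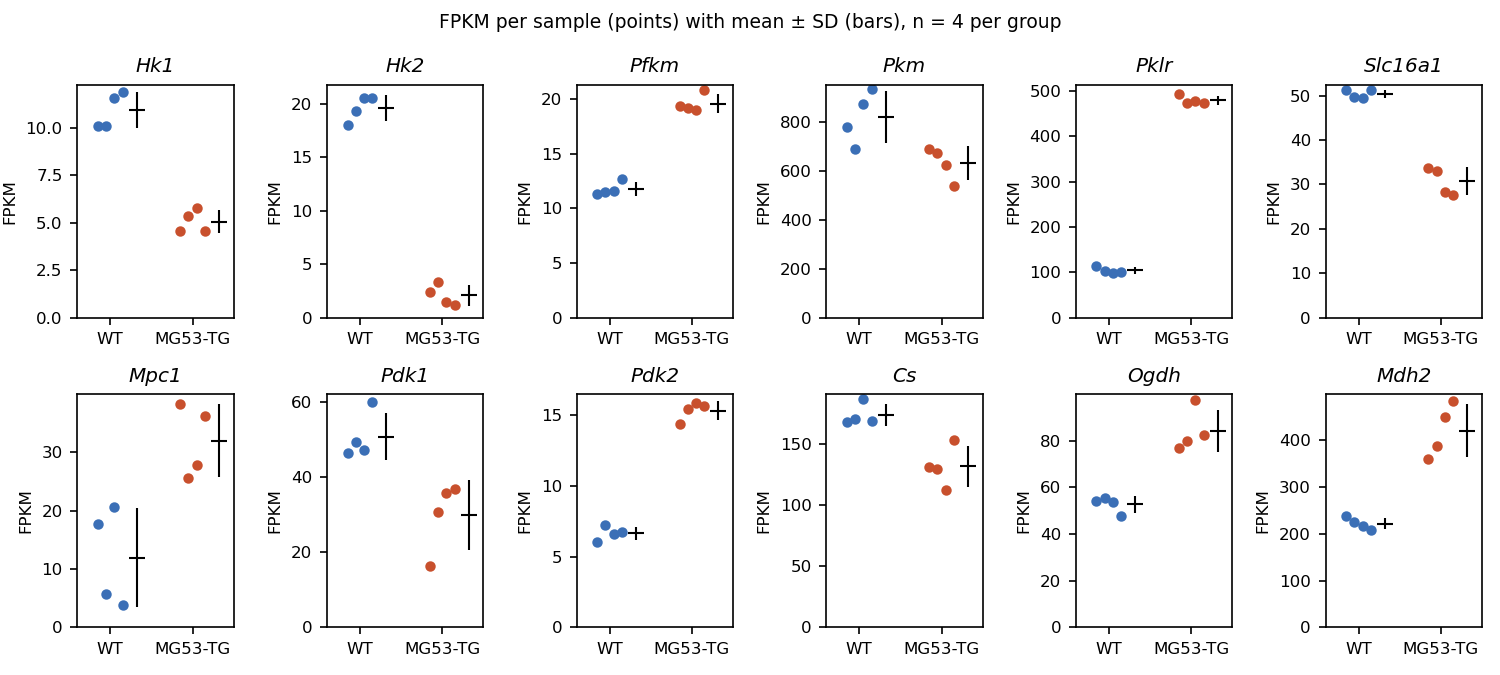
FPKM of 12 of the genes in each of the 4 WT and 4 MG53-TG samples (points) with mean and SD (bars). The groups overlap for Pkm alone among the genes plotted, and Mpc1 has 2 WT samples far below the others, at 5.71 and 3.79 FPKM.

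The increase of Pklr was found at both of its promoters. The upstream first exon (chr3:89136142-89136282), which follows the upstream promoter printed above, was at 5.66, 7.10, 6.19 and 4.62 FPKM in the WT and at 26.2, 27.4, 28.7 and 22.5 FPKM in the MG53-TG samples. The downstream first exon was read in 2 forms with different ends. The long form (chr3:89136572-89136637) was at 82.8, 76.4, 70.2 and 75.8 FPKM in the WT and at 468, 445, 448 and 450 FPKM in the MG53-TG samples. The short form (chr3:89136572-89136618) was at 25.8, 20.4, 21.7 and 20.5 FPKM in the WT and at 0.200, 0.222, 0.206 and 0.228 FPKM in the MG53-TG samples. The short form thus moved against the gene.

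Start shares and exon inclusion were compared with limma on an arcsine scale, over 4362 start shares and 1309 exons of all genes, of which 0.573% and 0.84% were called. Of the 42 genes, 21 start shares and 7 exons entered, and 2 start shares and 1 exon were called. The called starts were the 2 forms of the downstream Pklr exon. The short form held 21.2% of the Pklr starts in the WT (SD 1.4, n = 4) and 0.0447% in the MG53-TG samples (SD 0.00357, n = 4; limma adjusted p = 0.00468), and the long form held 73.2% and 94.5% (limma adjusted p = 0.0232). The long form was no longer called when any 1 sample was left out (limma adjusted p = 0.0516 to 0.0685). The upstream exon held 5.67% and 5.47% of the starts, which was no call (limma adjusted p = 0.985).

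The called exon was the cassette exon of Aldoa printed above. It was included in 78.3%, 76.4%, 83.3% and 77.5% of transcripts of the WT and in 35.3%, 24.4%, 34.3% and 31.4% of those of the MG53-TG samples. The groups lay far apart, with means of 78.9% ± 3.05 and 31.3% ± 4.92 (SD, n = 4 each; limma adjusted p = 0.0136). Transcripts with the exon were at 731, 732, 960 and 787 FPKM in the WT and at 211, 132, 277 and 249 FPKM in the MG53-TG samples. Transcripts without it were at 203, 227, 193 and 229 FPKM in the WT and at 387, 409, 532 and 545 FPKM in the MG53-TG samples. The fall of Aldoa was therefore found in the transcripts with the exon, and those without it were higher in each MG53-TG than in each WT sample. The call was lost without WT sample 2 or WT sample 4 (limma adjusted p = 0.0648 and 0.0645), with differences of the same size.

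Transcripts with the M2-type exon of Pkm were at 699, 550, 831 and 521 FPKM in the WT and at 447, 442, 455 and 329 FPKM in the MG53-TG samples, and the groups did not overlap. Transcripts without it, read from a junction that leaves the end of the M1-type exon in all 8 samples, were at 116, 166, 27.5 and 369 FPKM in the WT and at 193, 174, 110 and 93.4 FPKM in the MG53-TG samples. The share with the M2-type exon was 79.5% ± 16.2 in WT samples and 75.0% ± 5.03 in the MG53-TG samples (SD, n = 4 each), and the WT samples alone spread more widely than that (limma adjusted p = 0.810). The M2-type exon was thus the major one in all 8 samples.

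**Figure D3:**
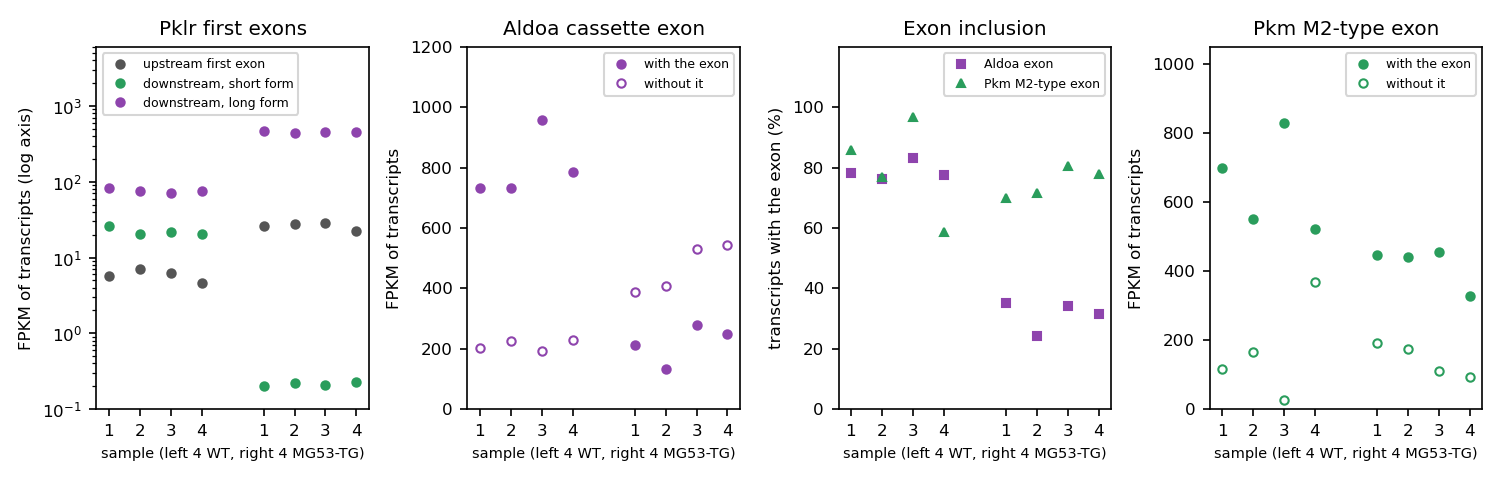
Transcript forms of Pklr, Aldoa and Pkm in the 4 WT samples (left of each panel) and the 4 MG53-TG samples (right): FPKM of the 3 Pklr first exons on a log axis, FPKM of Aldoa transcripts with and without the 153-base exon, inclusion of the Aldoa and the M2-type Pkm exon in percent, and FPKM of Pkm transcripts with and without the M2-type exon. The short downstream form of Pklr lies near 0.2 FPKM in the MG53-TG samples while the other forms rise, and the Aldoa exon drops from over 76% to under 36%.

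Lactate dehydrogenase interconverts pyruvate and lactate. Ldha was at 567 to 613 FPKM in the WT and at 575, 557, 732 and 580 FPKM in the MG53-TG samples, without a difference beyond the spread (log2 fold change 0.05, SE 0.10, limma adjusted p = 0.719). Ldhb was near the filter, at 0.0921, 1.78, 1.69 and 0.736 FPKM in the WT samples, and had no entry in the MG53-TG samples, where it was taken as 0 (limma adjusted p = 0.0231). The call was lost without MG53-TG sample 3 (limma adjusted p = 0.0508), and without WT sample 2 or 3 Ldhb was under the filter. Slc16a1 (MCT1, a transporter of lactate, pyruvate and butyrate, chr3:104638668-104658462) was at 51.2, 49.6, 49.5 and 51.2 FPKM in the WT and at 33.7, 33.0, 28.3 and 27.7 FPKM in the MG53-TG samples. It fell 1.64-fold with a clear gap between the groups (log2 fold change -0.70, SE 0.09, limma adjusted p = 0.000536).

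The mitochondrial pyruvate carrier is a dimer of the products of Mpc1 and Mpc2. Mpc1 (chr17:8282904-8297661) was at 17.6, 5.71, 20.6 and 3.79 FPKM in the WT and at 38.2, 25.5, 27.9 and 36.3 FPKM in the MG53-TG samples. Each MG53-TG sample was above each WT sample, and the mean rose 2.67-fold (log2 fold change 1.61, SE 0.46, limma adjusted p = 0.0219). The call was lost without WT sample 2 (limma adjusted p = 0.0594) or MG53-TG sample 4 (limma adjusted p = 0.0508). Mpc2 was at 19.4 to 52.3 FPKM in WT samples and 27.0 to 33.2 FPKM in the MG53-TG samples (limma adjusted p = 0.894).

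The pyruvate dehydrogenase complex is built from E1 (Pdha1, Pdhb), E2 (Dlat) and E3 (Dld, shared with the oxoglutarate dehydrogenase complex). Pdhb fell from 63.5, 61.0, 71.0 and 66.2 FPKM in the WT to 33.0, 52.6, 48.3 and 42.8 FPKM in the MG53-TG samples (log2 fold change -0.58, SE 0.14, limma adjusted p = 0.0111, and 0.0719 under median-of-ratios scaling). Its partner Pdha1 was at 97.0 to 121 FPKM in WT samples and 84.0 to 115 FPKM in the MG53-TG samples (limma adjusted p = 0.529), and Dlat at 31.0 to 47.3 and 38.2 to 42.9 FPKM (limma adjusted p = 0.506). Dld was at 70.3 to 74.9 FPKM in WT samples and 79.9 to 83.3 FPKM in the MG53-TG samples. These groups did not overlap, but the log2 fold change of 0.18 (SE 0.07) missed the threshold (limma adjusted p = 0.0617). Under median-of-ratios scaling it passed (0.37, with a limma adjusted p of 0.0119).

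Of the kinases that inactivate the complex, Pdk1 and Pdk2 moved in opposite directions. Pdk1, a known HIF target, was at 46.5, 49.4, 47.3 and 59.8 FPKM in the WT and at 16.5, 30.7, 35.7 and 36.7 FPKM in the MG53-TG samples. It fell 1.70-fold (log2 fold change -0.80, SE 0.24, limma adjusted p = 0.0237, and 0.0952 under median-of-ratios scaling), and the call was lost without WT sample 4 (limma adjusted p = 0.0645). Pdk2 (chr11:95026258-95041354) was at 6.06, 7.22, 6.60 and 6.72 FPKM in the WT and at 14.3, 15.4, 15.8 and 15.6 FPKM in the MG53-TG samples. It rose 2.30-fold with both groups tight (log2 fold change 1.09, SE 0.09, limma adjusted p = 4.93e-05). Pdk1 held 75.4% ± 1.99 of the summed FPKM of the 4 kinase genes in WT samples and 54.3% ± 7.22 in the MG53-TG samples, and Pdk2 held 9.93% ± 0.873 and 29.3% ± 5.97 (SD, n = 4 each). Pcx (pyruvate carboxylase, which feeds oxaloacetate) was low, at 1.86, 1.41, 2.89 and 2.19 FPKM in the WT and at 3.54, 3.15, 5.77 and 4.25 FPKM in the MG53-TG samples. This sum over its starts rose 2.002-fold (log2 fold change 0.74, SE 0.20, limma adjusted p = 0.0157). The main start (chr19:4510472-4510581) overlapped between the groups, at 1.77, 1.41, 2.76 and 2.19 FPKM in the WT and at 3.19, 3.01, 1.91 and 2.48 FPKM in the MG53-TG samples. Starts at chr19:4594346 added 3.73 FPKM in MG53-TG sample 3, and 0.744 and 1.02 FPKM (2 forms) in sample 4.

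**Figure D4:**
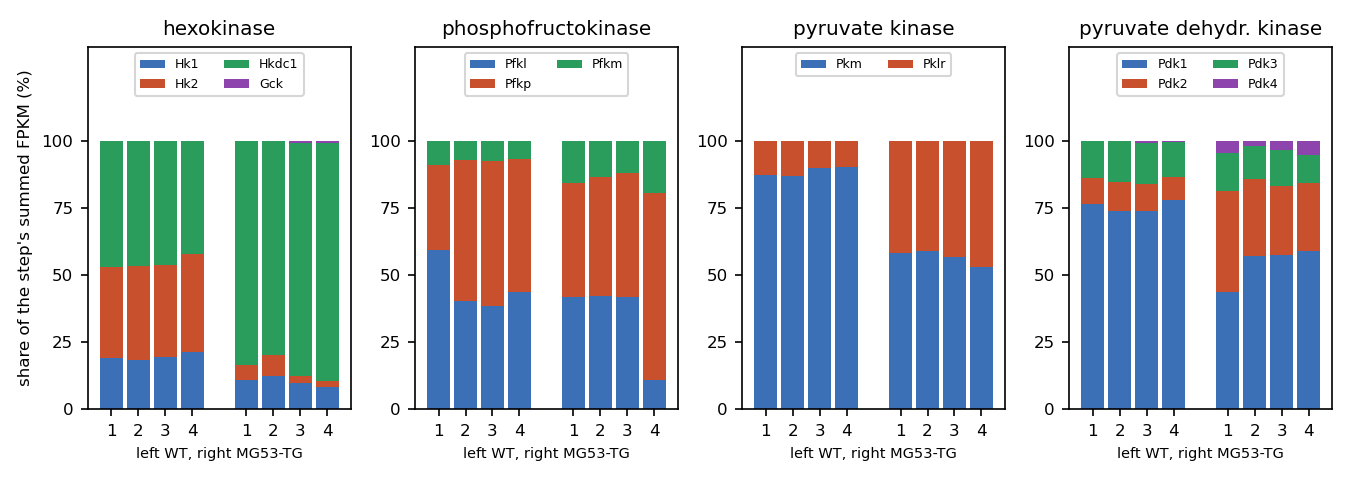
Share of the summed FPKM of a step held by each of its genes in each sample (stacked bars, 4 WT samples left and 4 MG53-TG samples right of each panel) for hexokinase, phosphofructokinase, pyruvate kinase and pyruvate dehydrogenase kinase. Hk2 shrinks from 35.0% to 4.54% and Pdk1 from 75.4% to 54.3%, while Pklr grows from 11.4% to 43.3% (means of 4 samples).

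Of the 15 genes listed for the TCA cycle, 6 rose (40%) and 2 fell (13.3%), against 15.5% and 28.7% of all genes tested. Under median-of-ratios scaling 6 were called higher and 0 lower. The list includes the cytosolic enzymes of Aco1, Idh1 and Mdh1, and Idh1 and Mdh1 were among the 6 that rose. Mdh2 (chr5:135778480-135790398), the mitochondrial malate dehydrogenase of the last step, was at 237, 226, 215 and 209 FPKM in the WT and at 359, 388, 449 and 484 FPKM in the MG53-TG samples. It rose 1.89-fold without overlap (log2 fold change 0.91, SE 0.11, limma adjusted p = 0.000251). Mdh1, the cytosolic form, was at 73.1, 68.6, 98.5 and 96.6 FPKM in the WT and at 107, 136, 110 and 150 FPKM in the MG53-TG samples (log2 fold change 0.57, SE 0.16, limma adjusted p = 0.0189). Its call was lost without WT sample 1 or 2 (limma adjusted p = 0.0533 and 0.0513) and with quantile normalization (limma adjusted p = 0.0573) or start events only (limma adjusted p = 0.147).

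Ogdh and Dlst encode E1 and E2 of the oxoglutarate dehydrogenase complex, which makes succinyl-CoA, and both rose. Ogdh was at 54.2, 55.4, 53.6 and 47.6 FPKM in the WT and at 77.1, 79.7, 97.5 and 82.7 FPKM in the MG53-TG samples (log2 fold change 0.66, SE 0.10, limma adjusted p = 0.00100). Dlst was at 38.8, 50.6, 42.1 and 41.0 FPKM in the WT and at 65.3, 70.5, 89.8 and 71.4 FPKM in the MG53-TG samples (log2 fold change 0.77, SE 0.13, limma adjusted p = 0.00157). In both genes MG53-TG sample 3 was the highest, and no sample overlapped.

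Succinate-CoA ligase has the alpha subunit of Suclg1 and the beta subunit of Suclg2 (GTP-forming) or Sucla2 (ATP-forming). Suclg1 was at 54.1 to 66.2 FPKM in the WT and at 81.8 to 91.0 FPKM in the MG53-TG samples, and rose 1.44-fold (log2 fold change 0.52, SE 0.09, limma adjusted p = 0.00200). Suclg2 was at 59.5 to 64.1 FPKM in the WT and at 51.1 to 55.1 FPKM in the MG53-TG samples, a 1.17-fold fall (log2 fold change -0.23, SE 0.07, limma adjusted p = 0.0346). Scaled by the median of ratios, this fall was -0.04 (limma adjusted p = 0.744), and the call was lost in each fit without 1 sample except those without WT sample 3 or MG53-TG sample 2. Sucla2 was at 14.5 to 42.6 FPKM in the WT and at 23.9 to 53.8 FPKM in the MG53-TG samples (limma adjusted p = 0.542).

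Citrate synthase opens the cycle. Cs was at 168, 170, 187 and 168 FPKM in the WT and at 131, 129, 112 and 153 FPKM in the MG53-TG samples, a 1.32-fold fall (log2 fold change -0.40, SE 0.10, limma adjusted p = 0.0130, and 0.203 under median-of-ratios scaling). Idh1, the cytosolic NADP-dependent isocitrate dehydrogenase, was at 70.7 to 86.3 FPKM in the WT and at 103 to 123 FPKM in the MG53-TG samples, and rose 1.45-fold (log2 fold change 0.53, SE 0.10, limma adjusted p = 0.00319). Its mitochondrial relative Idh2 and the 3 subunits of the NAD-dependent enzyme did not pass the threshold, with log2 fold changes of 0.05 for Idh2, -0.10 for Idh3a, 0.04 for Idh3b and -0.07 for Idh3g (limma adjusted p = 0.866, 0.608, 0.754 and 0.583). Aco1 (cytosolic aconitase) and Fh1 (fumarase) were also within the spread, with log2 fold changes of 0.03 and -0.00222 (limma adjusted p = 0.860 and 0.987).

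The branches of the pathway were compared as a description, since the genes were chosen with results of these data known. Of the 15 glycolysis genes, 3 rose (20%) and 6 fell (40%), against 15.5% and 28.7% of all genes tested, with a median log2 fold change of -0.37. Under median-of-ratios scaling 3 were called higher and 2 lower. Of the pyruvate genes, 3 rose and 4 fell, with a median of 0.05. The TCA genes, which include the cytosolic Aco1, Idh1 and Mdh1, had a median of 0.05. Of these 15 genes, 13 lay above the median of all genes, against 6 of the 15 glycolysis genes. The mean log2(FPKM + 1) of the glycolysis genes was 6.98, 7.13, 7.07 and 7.13 in WT samples and 6.74, 6.89, 6.86 and 6.67 in the MG53-TG samples. That of the TCA genes was 5.996, 5.879, 6.076 and 5.995 in WT samples and 6.18, 6.23, 6.26 and 6.23 in the MG53-TG samples. The difference of glycolysis less TCA was 1.09 ± 0.125 in WT samples and 0.57 ± 0.0916 in the MG53-TG samples (SD, n = 4 each), so it was lower by 0.52 in the latter, with no overlap between the groups. With transcription ends only it was lower by 0.18, but over fewer genes, since Hk2, Gpi1 and Dlst had no end events. Aldoa was listed there at 0.0568 to 6.52 FPKM. The 2 differences are thus not over the same genes.

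**Figure D5:**
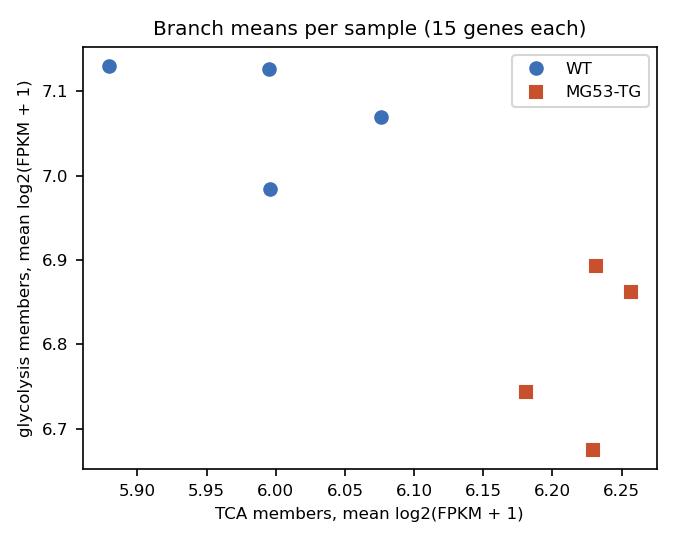
Mean log2(FPKM + 1) of the 15 glycolysis genes (vertical axis) and the 15 TCA genes (horizontal axis) in each sample, WT as circles and MG53-TG as squares. The MG53-TG samples lie lower (6.67 to 6.89 against 6.98 to 7.13) and further right (6.18 to 6.26 against 5.88 to 6.08).

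Ratios of 2 genes within a sample do not depend on scaling between samples. Most pairs were alternatives for the same step, but Mpc1 and Mpc2 form 1 dimer, and Idh1 is cytosolic while Idh2 is mitochondrial. Of 8 planned ratios, that of Ldhb to Ldha could not be formed, and 7 were compared by exact permutation (two-sided, 70 relabellings of the samples), which can give no p below 0.0286. The ratio of Hk1 to Hk2 was 0.562, 0.522, 0.563 and 0.580 in WT samples and 1.88, 1.60, 3.87 and 3.89 in the MG53-TG samples. Hk1 was thus below Hk2 in each WT sample and above it in each MG53-TG sample. Among the MG53-TG samples, samples 3 and 4 had the higher ratios. The ratio of Pkm to Pklr was 6.84, 6.65, 8.92 and 9.25 in WT samples and 1.40, 1.43, 1.31 and 1.13 in the MG53-TG samples. The ratio of Pdk2 to Pdk1 was 0.130, 0.146, 0.139 and 0.112 in WT samples and 0.871, 0.503, 0.444 and 0.425 in the MG53-TG samples. For each of these 3 ratios the groups did not overlap (exact permutation p = 0.0286, adjusted over the 7 ratios 0.0667), so 0 of 7 passed after adjustment and 3 of 7 before it. The ratios of Pfkp to Pfkl, Mpc1 to Mpc2, Suclg2 to Sucla2 and Idh2 to Idh1 overlapped between the groups (exact permutation p = 0.571, 0.0571, 0.400 and 0.257).

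The other genes of the pathway were taken from lists written by function, and their counts are to be read against the 15.5% higher and 28.7% lower of all genes tested. Of 22 tested genes of glycolysis and pyruvate use, 6 rose and 8 fell. Pdk4, a PPAR target that inactivates pyruvate dehydrogenase, rose at a low level (log2 fold change 1.24). Its mean was 0.265 FPKM in WT samples, under the filter, and 2.03 FPKM in the MG53-TG samples. Other increases with a log2 fold change of at least 1 included Galm (1.25, galactose mutarotase), Pfkfb4 (1.06) and Ldhd (1.04). The decreases of that size were Pfkfb3, a kinase that makes an activator of phosphofructokinase, from 19.5 ± 4.78 to 2.25 ± 1.18 FPKM, and Slc16a3, the lactate exporter MCT4, from 106 ± 33.1 to 29.6 ± 13.2 FPKM (SD, n = 4 each). The log2 fold change was -2.72 for Pfkfb3 (limma adjusted p = 0.000242) and -1.83 for Slc16a3 (limma adjusted p = 0.00285). Of 17 tested genes around the TCA cycle, 5 rose, among them the succinate dehydrogenase subunits Sdhb, Sdhc and Sdhd (0.41, 0.63 and 0.54, whereas Sdha was at 0.28 with a limma adjusted p of 0.314) and malic enzyme Me1 (1.31), and 5 fell, among them Acly (-1.73, ATP citrate lyase) and Pck2 (-1.32, mitochondrial PEP carboxykinase). Of the 9 pentose phosphate genes 1 rose and 4 fell, with Rpia the lowest at -1.09. Of 17 regulators 4 rose and 5 fell, and those with a change of at least 1 were Egln3 (-1.59, a HIF prolyl hydroxylase and HIF target) and Myc (-1.08). Hif1a and Epas1, which encode alpha subunits of HIF, rose with overlapping groups (0.63 and 0.53, limma adjusted p = 0.0491 and 0.0383). Mlxipl, which encodes ChREBP, was at 40.2 ± 3.67 FPKM in WT samples and 76.9 ± 8.22 FPKM in the MG53-TG samples (SD, n = 4 each; log2 fold change 0.92, limma adjusted p = 0.000257).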

How the data were processed

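RNA sequencing had been done on 4 WT and 4 MG53-TG organoid samples. Per the submitters' processing notes and the study's methods, the authors trimmed reads with cutadapt 1.9.1, mapped them with HISAT2 2.0.1 to mm10 and used HTSeq 0.6.1. The authors deposited FPKM values per transcript event (transcription starts, ends, skipped exons) and not per gene, so the analysis planned per gene was run on sums of events. The tool that made the event tables is not given in the sources used here. Start and end events were placed on GENCODE genes of GRCm38 by exon boundary, which placed 89.9% of 49773 events, and 5.12% of those placed were on another gene than that named for their locus. Pkm and Aldoa were found only in this way. A gene's value was the sum of its start events, or of its end events where that mean was higher. Where a sample lacked an entry, the gene was set to missing if the listed values of the group had a median of 0.5 FPKM or more, and otherwise to 0.

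Those genes whose mean reached 0.5 FPKM were put on the log2(FPKM + 1) scale and fitted with limma 3.58.1 (trend) in R 4.3.3, with Benjamini-Hochberg adjustment over all genes. Shares were compared on the arcsine square root scale, for totals of at least 2 FPKM in each sample and mean shares of 5% to 95%. Other steps ran in Python 3.11.15 (scipy 1.17.1, pandas 2.3.3, numpy 2.4.6). The fits were tested on simulated data. The alternatives were median-of-ratios scaling, leaving out each sample, the replicate number as a block, quantile normalization, a pseudocount of 0.1, a filter at 2 FPKM or none, start or end events only, absent entries as 0, and a total of at least 5 FPKM for shares. The 42 genes, the lists and the tests were chosen with earlier results of these data known. All 42 genes are named, and of other lists those past the threshold with no overlap and a log2 fold change of at least 1 in size, and isozymes of a step. The values of some genes that this rule covers are not reported here. The succinate dehydrogenase subunits, Mlxipl, Hif1a and Epas1 were named after their values were seen.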

Additional observations from a re-analysis of the deposited data

Results flagged for a closer look

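Of 100 groups of 4 values examined (the 42 genes, the 7 ratios and the difference between the branches, in each genotype), 7 held 1 sample far from the other 3 by Dixon's criterion, which chance gives in about 5% of groups. In the MG53-TG organoids, Slc2a1 was at 15.9 FPKM in sample 2 and at 2.38 to 3.50 FPKM in the others, Gapdh at 207 FPKM in sample 2 and at 281 to 294 FPKM in the others, and Ldha at 732 FPKM in sample 3 and at 557 to 580 FPKM in the others. The log2 ratio of Pfkp to Pfkl was 2.68 in MG53-TG sample 4 and 0.02 to 0.15 in the others. In the WT organoids, Pfkp was at 39.3 FPKM in sample 1 and at 84.0 to 92.5 FPKM in the others, Eno1 at 623 FPKM in sample 4 and at 1126 to 1179 FPKM in the others, and Cs at 187 FPKM in sample 3 and at 168 to 170 FPKM in the others.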

How the results depend on the processing

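Under the alternatives named in the methods, 10 to 13 of the 42 genes were called higher (12 in the report) and 9 to 13 lower (12 in the report), except for 4 lower with median-of-ratios scaling. The same 12 higher genes were not always kept: 10 to 12 of them were, and of the 12 lower genes 9 to 12 were, or 4 with that scaling. Hk2, Gpi1, Pcx and Dlst had no end events and so no value with end events only. Over all genes, 3571 to 5111 were called against 4820. Chosen after seeing the data, leaving out MG53-TG samples 1 and 2 gave 12 higher and 12 lower (5874 of all genes), with Mpc1 and Ldhb lost and Dld and Slc2a1 gained. Leaving out samples 3 and 4 gave 9 higher and 9 lower (3803 of all genes), with Mdh1, Mpc1, Pcx, Ldhb, Pkm and Suclg2 lost. The replicate numbers do not pair the samples: the deviations of same-numbered samples correlated at -0.05 to 0.09. With the replicate number as a block, 12 genes were higher and 10 lower, with Pkm (limma adjusted p = 0.0787) and Suclg2 lost. In that fit 4387 of all genes were called, while of the 3 called event shares 0 were. Leaving out 1 sample gave 1 to 2 called shares, and 0 to 4 called ratios (4 without WT sample 3) against 0. The difference between glycolysis and TCA was -0.52, -0.47 to -0.56 with 1 sample left out, and -0.18 with end events only, where Hk2, Gpi1 and Dlst drop out. The cause of these shifts was not tested.

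Of 706 values of single genes under an alternative, 635 kept their direction and side of the threshold, and 32 changed sign. Of these, 1 was a called gene, Aldoa, at 0.27 with end events only, where it was listed at 0.0568 to 6.52 FPKM. The others did not pass the threshold. With median-of-ratios scaling, Gpi1 was at 0.00767, Pfkp at 0.0461, Pgam1 at 0.14, Eno1 at 0.15, Pdha1 at 0.0831, Idh3a at 0.0873, Idh3g at 0.11 and Fh1 at 0.19. With quantile normalization, Idh3a was at 0.0292 and Idh3b at -0.0213. With end events only, Eno1 was at 0.88 and Idh3g at 0.83. Ratios are not among these values of single genes. The log2 ratio of Pfkp to Pfkl also changed sign with end events only (-0.40), and that of Mpc1 to Mpc2 with start events only (-0.0419). With 1 sample left out, Eno1 ranged over -0.27 to 0.0906, Ldha over -0.0428 to 0.088, Mpc2 over -0.13 to 0.33, Aco1 over -0.0487 to 0.12, Idh2 over -0.16 to 0.19, Idh3a over -0.20 to 0.000477, Idh3b over -0.00413 to 0.0897, Sucla2 over -0.033 to 0.47 and Fh1 over -0.0469 to 0.0775. The depth of the libraries is unknown, so no counting error was computed.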
